A study of Arabidopsis thaliana with 9 samples.

Results

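Typical cysteine-rich receptor-like kinases are plant membrane proteins that pair an outer part, built from repeats of the DUF26 domain, with a kinase inside the cell. Many of their genes lie in tandem arrays, and members of the family are known from responses to pathogens, reactive oxygen and salicylic acid. Of 41 listed loci of the family, 36 of them on chromosome 4, the annotation of the array used here assigns a probe set to 1, *AT4G00960* on chromosome 4. Within the list it was taken by its locus and not by its signal, but the list itself was made with earlier results of these data known. For the other 40 loci no probe set is named by that annotation and no value can be given, among them *CRK2* (*AT1G70520*) and *CRK3* (*AT1G70530*) of the chromosome 1 candidate interval. *AT4G00960* is 1 of 13286 genes to which that annotation assigns a probe set of their own. It names no gene for 8730 of 22746 probe sets, so a locus without a named probe set may still be on the array. The gene table used for names gives *AT4G00960* no symbol, and the sections below describe this 1 gene. No sequence of it was used, so whether its product has both the DUF26 part and the kinase was not examined.

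The data are hybridization signals from Affymetrix ATH1 arrays of root tips of Cvi (Cvi-1 in the labels), the near isogenic line 170G-55-16 (also named HGI2.1, NIL below) and L*er* (L*er*-2 in the labels), with 3 arrays per genotype. For each array, the RNA of about 600 tips of 7 mm was pooled from 5 d old seedlings. All seedlings had grown on hard agar for 2 d upright and 3 d tilted back by 30°, and the labels name no added compound. The labels call the arrays of a genotype biological replicates and do not say which part of the genome of the NIL comes from Cvi.

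Over 22746 probe sets, array medians lay between 110 and 122 and array minima between 4.96 and 5.32. Cvi array 1 stood apart, with r = 0.978 and 0.980 to the other Cvi arrays across probe sets, whereas the other within-genotype correlations were 0.996 or higher. Among the listed tissue markers, 1 of 15 root genes and 2 of 14 shoot genes are named on the array. The root hair expansin gene *EXPA7* had signals of 862 to 1348 on the 9 arrays. The photosynthesis genes *LHCB4.1* and *RCA* were also well lit, at 200 to 407 and 354 to 611, so shoot-type transcripts were measured in these root tips. *RCA* was lower in Cvi than in L*er* (difference −0.47 on the log2 scale, adjusted p = 0.0467 from limma), a call lost in 11 of 16 alternatives at an adjusted p of up to 0.158. *LHCB4.1* had a difference of −0.47 that did not pass (adjusted p = 0.127 from limma), and the part of either in the result for *AT4G00960* was not tested.

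*AT4G00960* gave a higher signal in root tips of Cvi than in those of L*er* or the NIL. Its signals were 61.7, 17.1 and 25.3 on Cvi arrays 1, 2 and 3. They were 9.60, 9.42 and 9.04 on the NIL arrays and 10.0, 10.2 and 9.61 on the L*er* arrays. All 3 Cvi arrays therefore lay above all 6 arrays of the other genotypes, as they did at 9.72% of all probe sets, and the Cvi arrays were spread far more widely than either of these groups. The signals of the NIL and of L*er* lay close together, with every NIL array below every L*er* array by a narrow margin.

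**Figure D1:**
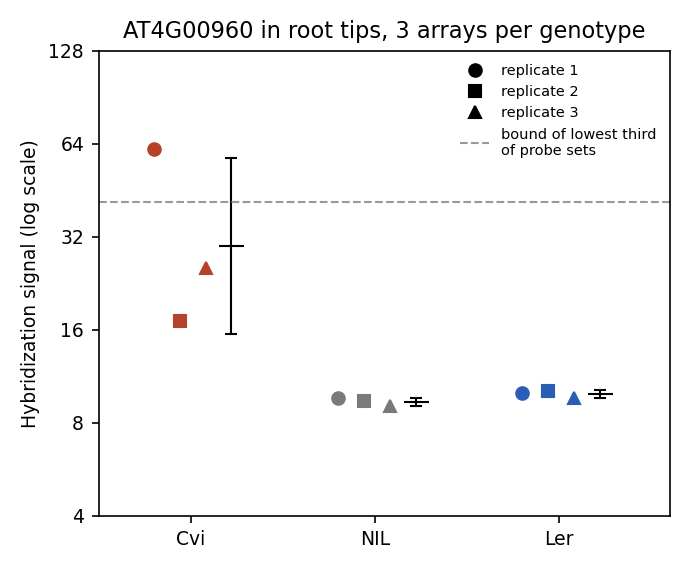
Hybridization signal of *AT4G00960* (log scale) on the 3 arrays each of Cvi, the NIL and L*er*, with the geometric mean and SD of the log2 signals as a black bar and a dashed line at 41.4, below which the third of the probe sets with the dimmest means lies. Cvi array 1 reached 61.7 and the other Cvi arrays 17.1 and 25.3, while the 6 NIL and L*er* arrays lay between 9.04 and 10.2.

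On the log2 scale the mean signal of *AT4G00960* was 4.90 ± 0.95 in Cvi, 3.23 ± 0.04 in the NIL and 3.31 ± 0.04 in L*er* (n = 3 arrays per genotype, ± SD). The geometric means were 29.9 in Cvi, 9.35 in the NIL and 9.92 in L*er* on the linear scale. In bulk tips, more cells that express a gene and more RNA per cell cannot be told apart.

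Set against the whole array, the signal of *AT4G00960* was low in all 3 genotypes. On the Cvi arrays 17.7% to 39.7% of the probe sets had a lower signal, on the NIL arrays 4.68% to 5.87% and on the L*er* arrays 6.04% to 7.17%. Cvi array 1 alone exceeded 41.4, the mean signal under which a probe set falls in the third that is dimmest. No detection call was used, so it is not known whether the L*er* and NIL signals stand above background, and the fold between genotypes depends on that background.

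Whether the accessions differ at this gene was tested with limma on the log2 signals, in 1 fit to all 9 arrays. The difference between Cvi and L*er* was 1.59, with a standard error of 0.35 and a 95% confidence interval of 0.81 to 2.37 (adjusted p = 0.0132). This is 3.01-fold higher in Cvi. Over all probe sets 5.75% were called higher in Cvi than in L*er* at an adjusted p under 0.05, and 1.59% when a fold of at least 2 was also asked for. *AT4G00960* met both rules, but a single measured gene says nothing of the other loci of the family. Permuting the 3 Cvi and 3 L*er* arrays gave an exact two-sided p of 0.1, below which no split of this size can go. All Cvi arrays lay above all L*er* arrays at 13% of the probe sets.

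The call was made despite a wide spread among the Cvi arrays, which enters its standard error. At *AT4G00960*, Cvi array 1 lay at least 2-fold above both other Cvi arrays, which was so at 153 probe sets (0.673%), and 0.171% of the probe sets had a larger SD over the Cvi arrays. Without Cvi replicate 1, *AT4G00960* was still called higher in Cvi, at a smaller difference of 1.07 with a smaller error (standard error 0.14, adjusted p = 1.14e-04 from limma). The call was lost without L*er* replicate 1 (difference 1.60, adjusted p = 0.0518 from limma), without L*er* replicate 3 (1.57, adjusted p = 0.0591), in a fit to the 6 Cvi and L*er* arrays (1.59, adjusted p = 0.0581) and with log2 of the signal plus 16 (0.87, adjusted p = 0.0697). The direction was the same in all 15 alternatives that give a value for the gene.

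**Figure D2:**
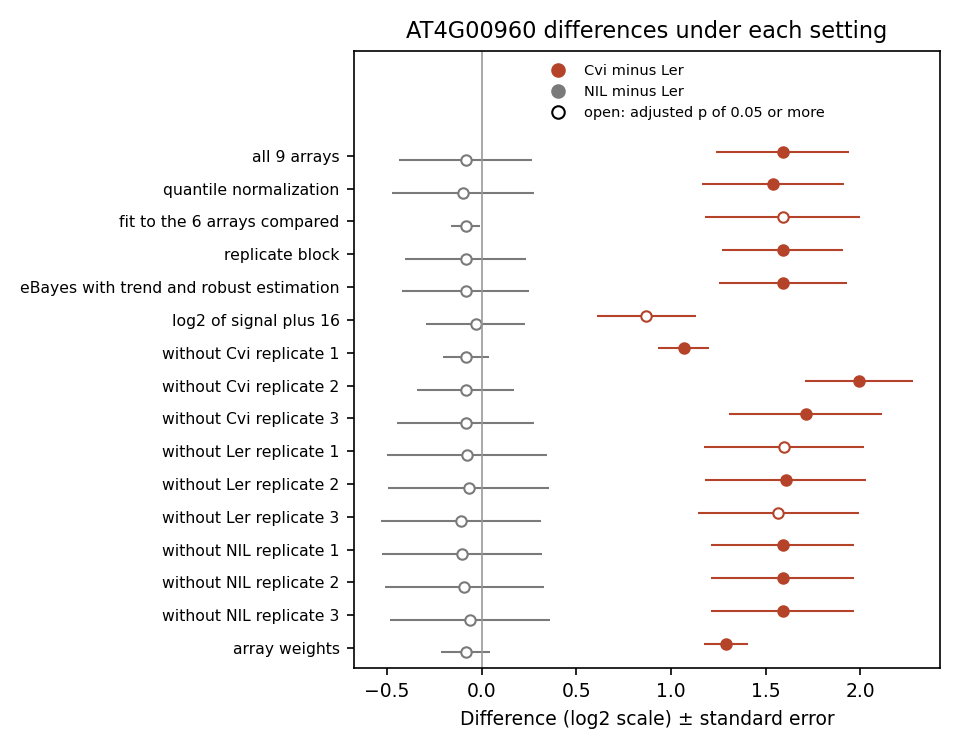
Difference of *AT4G00960* on the log2 scale, with its standard error, between Cvi and L*er* (red) and between the NIL and L*er* (grey) under each setting. Filled points have an adjusted p under 0.05. The Cvi minus L*er* difference lay between 0.87 and 1.99 under these settings, and the NIL minus L*er* difference between −0.11 and −0.03.

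The NIL was compared with L*er* and with Cvi in the same fit, so these comparisons share arrays with the one above. Between the NIL and L*er*, *AT4G00960* was not called, at a difference of −0.09 with a standard error of 0.35 and a 95% confidence interval of −0.87 to 0.70 (adjusted p = 1.00 from limma). The interval leaves room for a change of up to 1.83-fold lower or 1.62-fold higher in the NIL. However, the fit takes 1 spread for all 3 genotypes. The interval therefore carries the SD of the Cvi arrays, 0.95, beside 0.04 in the NIL and 0.04 in L*er*. A narrower error came from the 6 NIL and L*er* arrays alone (standard error 0.08, adjusted p = 0.756 from limma). The NIL arrays lay below the L*er* arrays without overlap, as at 9.37% of the probe sets (exact two-sided permutation p = 0.1, the smallest possible), while 0.356% of the probe sets were called in either direction between these lines and 3.84% had an unadjusted p under 0.05.

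Between the NIL and Cvi, *AT4G00960* differed by −1.68, with a standard error of 0.35 and a 95% confidence interval of −2.46 to −0.89 (adjusted p = 0.0116 from limma). This is 3.19-fold lower in the NIL. Lower calls in the NIL were made at 5.61% of the probe sets, and 14.9% had all NIL arrays below all Cvi arrays, as *AT4G00960* did. Without Cvi replicate 1 the difference was −1.15 (adjusted p = 7.53e-05 from limma). Without NIL replicate 3 the call was lost (difference −1.65, adjusted p = 0.0514 from limma), as it was in a fit to the 6 arrays (−1.68, adjusted p = 0.0625) and with log2 of the signal plus 16 (−0.90, adjusted p = 0.0708). In the order of mean levels, Cvi thus stood first and apart from both lines, while L*er* and the NIL did not differ beyond the error of the fit.

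The chromosomal neighbours of *AT4G00960* were looked at because the family lies in clusters, with the 5 nearest named genes on each side, a number set after some of the values had been seen. Next to *AT4G00960* lies *CRK41* (*AT4G00970*), another listed member, which has no probe set named here. The nearest genes with a named probe set are *AT4G00955* on one side and *AT4G00980* on the other, and both were higher in Cvi than in L*er*. The gene table gives no symbol to either.

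*AT4G00955* had signals of 28.9, 25.7 and 32.3 in Cvi, 19.4, 17.4 and 21.2 in the NIL and 19.4, 16.4 and 15.6 in L*er*. Its difference between Cvi and L*er* was 0.76 (standard error 0.13, adjusted p = 0.00301 from limma). *AT4G00980* had signals of 68.9, 53.1 and 60.1 in Cvi, 37.0, 30.2 and 40.5 in the NIL and 35.9, 40.9 and 31.4 in L*er*. Its difference between Cvi and L*er* was 0.75 (standard error 0.15, adjusted p = 0.00729 from limma). At both neighbours, as at *AT4G00960*, every Cvi array lay above all arrays of the NIL and of L*er*, which was so at 9.72% of all probe sets, and the 3 Cvi arrays of these neighbours were close together, including array 1. Both were still called without Cvi replicate 1, at 0.76 for *AT4G00955* (adjusted p = 0.00128 from limma) and 0.66 for *AT4G00980* (adjusted p = 0.00477 from limma).

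Of the 10 neighbours, 2 were called higher and 1 lower in Cvi than in L*er*, beside 5.75% higher and 7.27% lower over all probe sets. Their median difference was 0.13, beside 0.01 over all probe sets. The gene called lower was *AT4G01040* (difference −0.33, adjusted p = 0.0364 from limma), a call that was lost in 11 of 16 alternatives, at an adjusted p of up to 0.133. Farther out, *AT4G00990* differed by 0.28 and *AT4G00920* by −0.25 (adjusted p = 0.349 and 0.394 from limma). Between the NIL and L*er* 0.356% of all probe sets were called, and none of the 10. *AT4G00910* had the difference farthest from 0 of these, −0.74 (adjusted p = 0.159 from limma). This difference passed in 3 of 16 alternatives, which were the fit to 6 arrays (adjusted p = 0.0137 from limma), the fit without Cvi replicate 1 (0.0107) and array weights (0.00104). Over all probe sets 223, 266 and 486 were called in these, beside 81 before these changes. *AT4G00910* was lower in the NIL than in Cvi by a called −0.91 (adjusted p = 0.00479 from limma). *AT4G00955* at −0.58 and *AT4G00980* at −0.76 were lower in the NIL than in Cvi as well (adjusted p = 0.0159 and 0.00812 from limma). The call of *AT4G00980* held in all 16 alternatives, whereas that of *AT4G00955* was lost in 3 of 15, without Cvi replicate 3 (adjusted p = 0.0570 from limma), without NIL replicate 1 (0.0570) and without NIL replicate 2 (0.0794). *AT4G01040* was called higher in the NIL than in Cvi, by 0.32 (adjusted p = 0.0468 from limma), and passed in 4 of 16 alternatives. Thus 3 of the 10 were called lower and 1 higher in the NIL than in Cvi. Over all 22746 probe sets, 2465 were called in either direction, and 1275 of these (5.61% of all) were called lower and the rest higher.

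**Figure D3:**
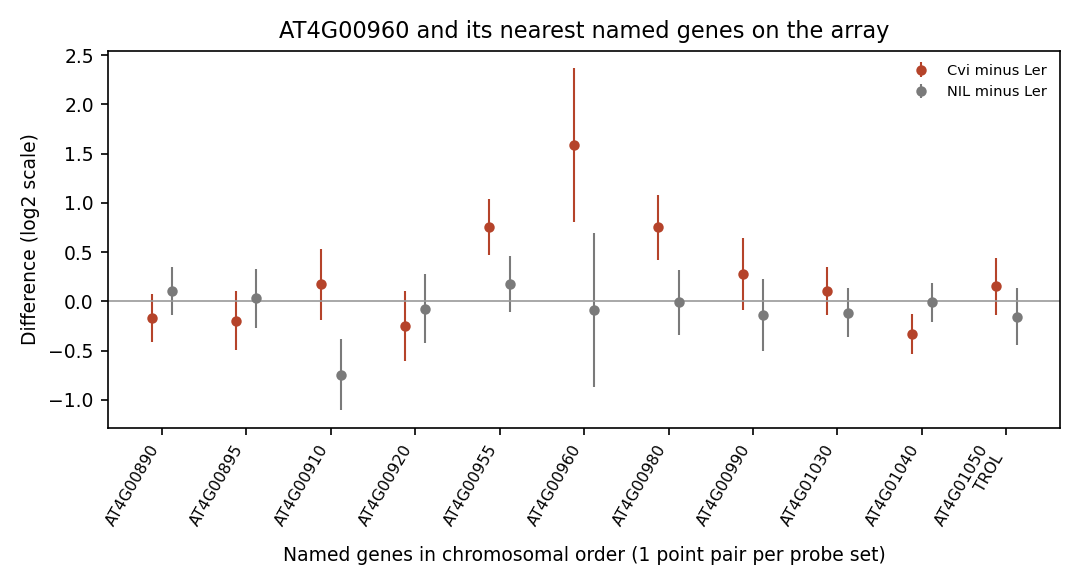
Differences on the log2 scale with 95% confidence intervals for *AT4G00960* and the 5 nearest named genes on each side, in chromosomal order, between Cvi and L*er* (red) and between the NIL and L*er* (grey). *AT4G00960* at 1.59 and the genes beside it, *AT4G00955* at 0.76 and *AT4G00980* at 0.75, have Cvi minus L*er* intervals above 0.

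Among 12 other genes listed for the DUF26 family, which include the plasmodesmata-located proteins, only *AT1G70740* has a probe set named here. It lies in the chromosome 1 candidate interval, and whether its product carries the DUF26 domain was not examined. *AT1G70740* had signals of 137, 97.2 and 130 in Cvi, 132, 133 and 146 in the NIL and 151, 133 and 141 in L*er*. The Cvi and L*er* arrays overlapped, and the difference of −0.24 was not called (95% confidence interval −0.54 to 0.06, adjusted p = 0.323 from limma). Without Cvi replicate 1 it was −0.33 (adjusted p = 0.0731 from limma). The NIL minus L*er* difference of *AT1G70740* was −0.05 (adjusted p = 1.00 from limma).

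Receptor-like kinases act in the same pathways as pattern receptors, respiratory burst oxidases, which make reactive oxygen, MAP kinases and salicylic acid signalling, and 51 genes of these were listed. On this array 8 of them are named here. In Cvi, 0 of the 8 were called higher and 1 was called lower than in L*er*, beside 5.75% higher and 7.27% lower over all probe sets. Their median difference was 0.05, beside 0.01 over all probe sets and 1.59 for *AT4G00960*.

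The gene called lower was *SAG101*, whose product works with the immune regulator EDS1. *SAG101* had signals of 28.7, 30.1 and 24.3 in Cvi, 33.4, 44.0 and 38.8 in the NIL and 38.8, 48.7 and 42.3 in L*er*. All Cvi arrays lay below all others, as at 9.53% of all probe sets, and the difference between Cvi and L*er* was −0.64 (standard error 0.14, adjusted p = 0.0111 from limma). Without L*er* replicate 2 *SAG101* was not called (−0.56, adjusted p = 0.0511 from limma).

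For pattern recognition, the receptor gene *EFR*, which senses a bacterial elongation factor, had a difference between Cvi and L*er* of 0.19, the lectin receptor kinase gene *SD1-29* one of −0.08 and *BIK1*, a kinase that acts directly below such receptors, one of 0.20 (adjusted p = 0.314, 0.848 and 0.515 from limma). *WRKY53*, a transcription factor gene of senescence and defence, had −0.24 (adjusted p = 0.162 from limma). None of the 8 genes was called between the NIL and L*er*, where 0.356% of all probe sets were called.

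The 3 named oxidase genes had differences between Cvi and L*er* of 0.52 at *AT1G19230*, 0.29 at *AT4G25090* and −0.37 at *AT4G11230* (adjusted p = 0.332, 0.187 and 0.425 from limma). At *AT4G25090* all Cvi arrays (365 to 494) lay above all others (314 to 359), as at 9.72% of all probe sets. At *AT1G19230*, Cvi array 1 gave 298 and the other Cvi arrays 121 and 136, against 106 to 147 in L*er*. At *AT4G11230*, Cvi array 1 gave 65.3 and the others 29.0 and 34.3, against 48.0 to 56.4 in L*er*. Without Cvi replicate 1 the differences were 0.11 at *AT1G19230* (adjusted p = 0.674 from limma) and −0.72 at *AT4G11230*, which was then called lower in Cvi (adjusted p = 0.00116 from limma).

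**Figure D4:**
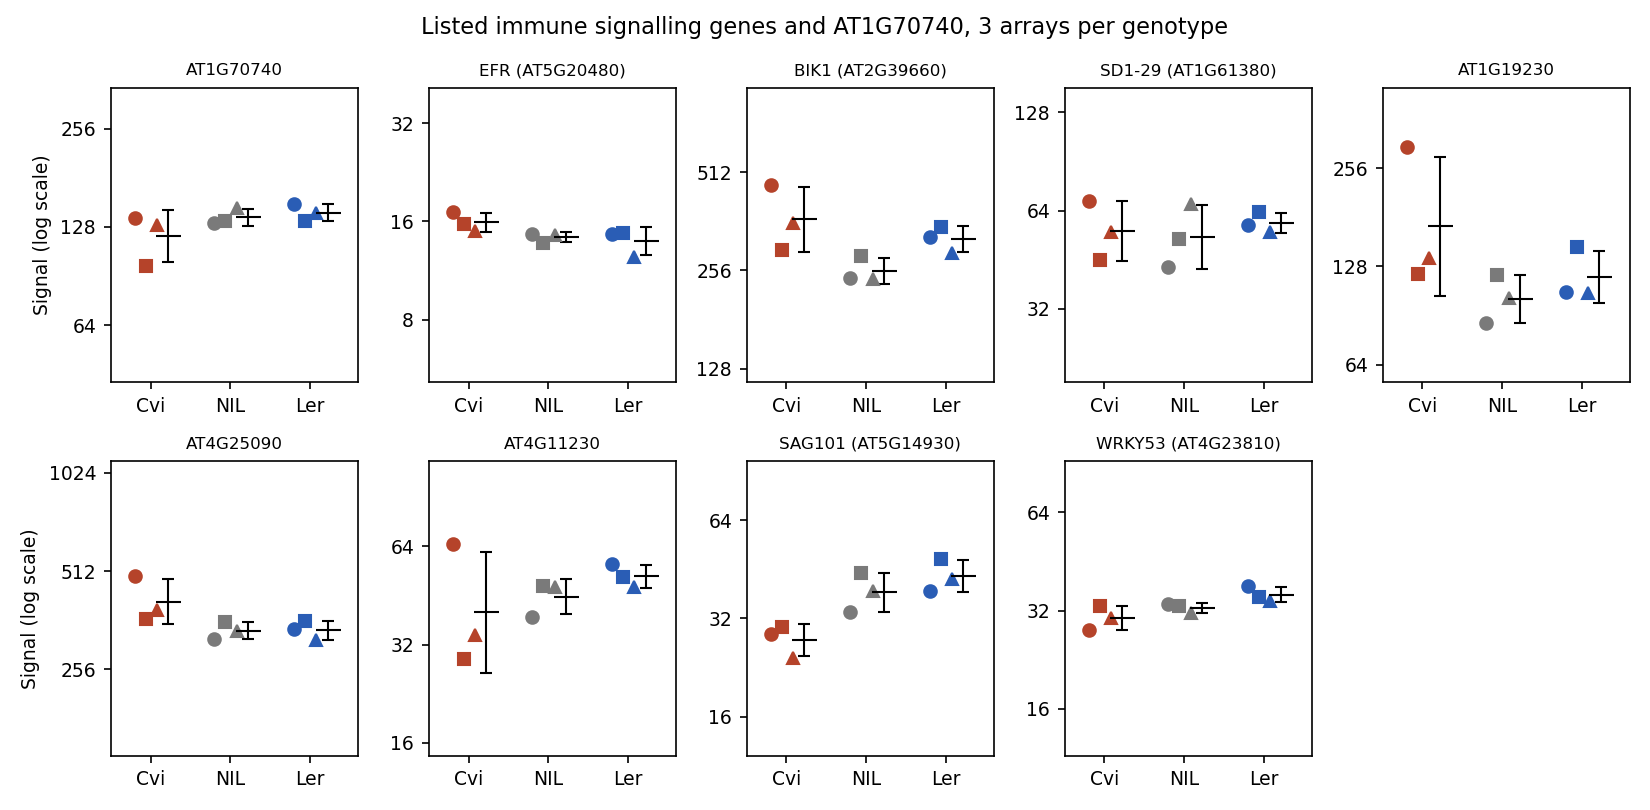
Hybridization signals (log scale, a range of its own per gene) of *AT1G70740* and the 8 named immune signalling genes on the 3 arrays each of Cvi, the NIL and L*er*, with circles, squares and triangles for replicates 1, 2 and 3 and black bars for the geometric mean and SD of the log2 signals. Of these 9 genes only *SAG101* was called between Cvi and L*er*, with Cvi signals of 24.3 to 30.1 below L*er* signals of 38.8 to 48.7.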

How the data were processed

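The values deposited by the authors are normalized linear intensities, with 1 value for every probe set on an array. MAS5 and RMA stand in the submitters' processing notes, but which of them made the values is not stated there. From these values, log2 signals of 22746 probe sets (64 control probe sets left out) of all 9 arrays entered 1 linear model per probe set with a term for genotype (lmFit and eBayes of limma 3.58.1, R 4.3.3). Calls needed a p under 0.05 after Benjamini-Hochberg adjustment over all of these. The fit was tried on simulated data in which every genotype had the same spread. That does not check it for a gene such as *AT4G00960*, whose spread differed between genotypes.

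Names came from the annotation of the platform, which gives 1 gene for 13513 of them, several for 503 and none for 8730, and through the TAIR10.1 gene table, from which only names and the order of genes were taken. List rules that call for gene descriptions used its symbols and synonyms. This found 105 other receptor-like kinase genes, none with a named probe set, and none of 6 listed MAP kinases has one. Values were to be named for called members, members with several probe sets and *CRK2* and *CRK3*, and for up to 4 called genes per list. The members and lists were chosen with earlier results of these data known. No sequence of the members was used, and whether Cvi and L*er* differ in sequence where the probes bind was not examined. The number of arrays limits the precision.

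The alternatives tried were a fold of at least 2, each array left out in turn, a replicate block, a pseudocount of 16 before the log2, quantile normalization, a robust eBayes with trend, a fit limited to the 6 arrays of a comparison, and a filter that drops the third of the probe sets that is dimmest by mean. Array weights were added after seeing the data.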

Additional observations from a re-analysis of the deposited data

How the results depend on the processing

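The *AT4G00960* difference kept its direction in all 15 alternatives in each comparison. It passed in 11 of these between Cvi and L*er* (adjusted p from limma 5.51e-07 to 0.0697), in 12 between the NIL and Cvi (8.77e-07 to 0.0708) and in 0 between the NIL and L*er*, where 3.84% of all probe sets had an unadjusted p under 0.05. In the fit to 6 arrays it was 1.59 (adjusted p = 0.0581) between Cvi and L*er* and −1.68 (0.0625) between the NIL and Cvi, and with log2 of the signal plus 16 it was 0.87 (0.0697) and −0.90 (0.0708), so that 0 members were called in each of these. With one array left out it ranged from 1.07 to 1.99 between Cvi and L*er*, from −0.11 to −0.06 between the NIL and L*er* and from −2.08 to −1.15 between the NIL and Cvi, with 0 or 1 member called. With the third of probe sets of lowest mean signal left out, the gene is not tested.

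Calls over the whole array numbered 2960 for Cvi against L*er*, 81 for the NIL against L*er* and 2465 for the NIL against Cvi. With a fold of at least 2 these were 883, 43 and 772, in fits to 6 arrays 1944, 223 and 1529, with array weights 9546, 486 and 6931, and with one array left out 1832 to 5396, 30 to 266 and 1560 to 4028. Without Cvi replicate 1 they were 5396, 266 and 4028. The cause was not tested. Same-numbered arrays of the genotypes deviated with r of −0.259 to 0.232 and differently numbered ones with r of −0.263 to 0.281. These values show no pairing by number, but they cannot exclude one. With the replicate number as a block, the counts were 2520, 67 and 2094 and *AT4G00960* stayed called at 1.59 (adjusted p = 0.0144) and −1.68 (0.0131). Neither detection calls nor probe-level signals were used, which limits what can be said of signals near 10.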
